A study of Mus musculus with 9 samples.

Results

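Dmp1, Mepe, Phex, Ibsp and Spp1, genes that osteoblasts and osteocytes use to build and mineralise bone matrix, were followed in the developing jaw joint of the mouse. They were chosen by name, with earlier results of these data known. Every probe set that the platform annotation gave to 1 of these symbols was taken. This gave 8 probe sets for 4 of the 5 genes, out of 18193 named genes on the array, and Spp1 is not analysed here. Of 9 Affymetrix arrays of embryos taken on embryonic day 16.5, 3 held RNA of the condyle (the knob of the lower jaw), 3 that of the fossa (its socket in the skull), and 3 that of the whole body. No strain, genotype or treatment other than laser capture of frozen tissue was given for any group, and the labels enter laser capture for the whole body samples too, which could not be checked here. The design text calls the samples biological triplicates without saying which embryo gave which sample, so p-values speak of the spread among these arrays, which may in part be technical.

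Bone is laid down as a soft collagen matrix, osteoid, which then fills with calcium phosphate mineral. Dmp1 (dentin matrix protein 1), Ibsp (integrin binding sialoprotein, or bone sialoprotein) and Mepe (matrix extracellular phosphoglycoprotein) are secreted phosphoproteins that bind mineral and carry an Arg-Gly-Asp sequence recognised by integrins. Ibsp is made by osteoblasts and promotes the first deposits of mineral, Dmp1 is made by osteoblasts as they turn into osteocytes and by osteocytes, and Mepe yields a peptide that inhibits mineral. Phex is a membrane enzyme of the neprilysin family on the same cells, and its loss, like that of Dmp1, raises the phosphate hormone Fgf23 and causes soft bones. At this stage the condyle is a growing cartilage with a collar of bone, and the fossa is forming mainly by bone laid down directly in membrane.

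On mouse chromosome 5 the annotated genes stand in the order Dspp, Dmp1, the long noncoding RNA Gm31048, Ibsp, Mepe and Spp1, next to one another, and Phex lies on chromosome X. Since Dmp1, Phex and Ibsp moved together across the arrays, the 300 bases around each annotated start are shown, 250 before it and 50 from it on. The sequences are from RefSeq (GRCm38.p6), 5′ to 3′ on the strand of the gene. The first start of Dmp1 lies in chr5:104197325-104197624, the second in chr5:104202367-104202666, that of Ibsp in chr5:104299037-104299336 and that of Mepe in chr5:104325079-104325378, all on the plus strand. Phex lies on the minus strand, in chrX:157415237-157415536. Capitals mark the letters of a CCAAT box, of the A- and T-rich run TTTAAA, and of a TATA box spelled TATAAA. Each was searched on both strands, and no match overlapped another. These motifs were chosen after the sequences had been read.
Dmp1 (start 1): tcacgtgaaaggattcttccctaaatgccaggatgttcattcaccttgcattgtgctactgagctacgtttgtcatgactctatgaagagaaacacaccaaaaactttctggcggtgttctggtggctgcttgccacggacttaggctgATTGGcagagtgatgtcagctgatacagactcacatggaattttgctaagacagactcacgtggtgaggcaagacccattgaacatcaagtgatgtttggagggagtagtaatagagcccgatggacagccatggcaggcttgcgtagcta
Dmp1 (start 2): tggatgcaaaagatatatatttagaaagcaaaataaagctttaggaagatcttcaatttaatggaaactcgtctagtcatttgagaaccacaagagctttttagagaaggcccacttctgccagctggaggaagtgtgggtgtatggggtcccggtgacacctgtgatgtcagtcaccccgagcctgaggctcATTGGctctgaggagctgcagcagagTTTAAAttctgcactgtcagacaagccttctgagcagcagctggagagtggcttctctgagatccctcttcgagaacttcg
Ibsp: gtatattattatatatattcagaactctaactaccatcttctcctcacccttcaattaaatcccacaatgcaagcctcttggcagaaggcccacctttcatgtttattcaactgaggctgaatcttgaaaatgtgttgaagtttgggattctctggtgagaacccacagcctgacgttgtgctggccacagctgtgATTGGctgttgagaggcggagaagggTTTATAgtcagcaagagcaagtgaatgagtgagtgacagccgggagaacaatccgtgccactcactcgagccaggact
Mepe: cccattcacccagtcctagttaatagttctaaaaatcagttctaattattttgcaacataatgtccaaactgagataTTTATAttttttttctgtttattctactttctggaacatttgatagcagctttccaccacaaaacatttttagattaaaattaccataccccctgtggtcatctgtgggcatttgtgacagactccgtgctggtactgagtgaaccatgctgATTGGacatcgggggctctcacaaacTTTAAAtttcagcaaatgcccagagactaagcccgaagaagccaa
Phex: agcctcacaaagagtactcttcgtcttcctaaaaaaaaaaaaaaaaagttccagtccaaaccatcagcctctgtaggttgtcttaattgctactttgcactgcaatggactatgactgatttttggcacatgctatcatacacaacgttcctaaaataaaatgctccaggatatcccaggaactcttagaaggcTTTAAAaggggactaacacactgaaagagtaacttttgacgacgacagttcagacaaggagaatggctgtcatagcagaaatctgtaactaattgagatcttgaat

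Counted from the start, which is position 1 and has no position 0 before it, the Ibsp window held ATTGG, the reverse complement of CCAAT, at -54 to -50 and TTTATA, the reverse complement of TATAAA, at -28 to -23. An inverted CCAAT box and an inverted TATA box are known from the promoter of the rat gene. The second Dmp1 window held ATTGG at almost the same place, -57 to -53, followed by TTTAAA at -31 to -26, and the first held ATTGG at -101 to -97. In the Mepe window ATTGG lay at -21 to -17, TTTAAA at 6 to 11 and TTTATA at -173 to -168. The Phex window held TTTAAA at -56 to -51 and no CCAAT on either strand. Of all 32851 annotated windows of this length, 37.4% held CCAAT on either strand, 13.2% TTTAAA and 13.6% TATAAA. The letters ATTGG within 100 bases before the start were found in 10.4%, and TTTAAA within 50 bases before the start in 2.37%. The letters TGTGGT, the core that Runx factors bind, were searched in the same way and are not capitalised. They were found in either orientation at -164 to -159 in the second Dmp1 window and at -118 to -113 and -80 to -75 in the Mepe window, and in 16.8% of all windows. These matches describe the letters and say nothing about binding.

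Levels are the deposited probe set intensities on the log2 scale, so that a step of 1 doubles the intensity. An array's background limit is the highest signal of 27 control probe sets for bacterial transcripts, and it lay between 2.87 and 3.52. Between 45.4% and 46.9% of probe sets were above it on the condyle arrays, 30.3% to 43.8% on the fossa arrays and 37.4% to 45.9% on the whole body arrays, with fossa array 1 at the low end. Fossa array 1 also had the smallest 3 prime minus 5 prime signal of the Gapdh and Actb controls (3.69 and 4.79), and its limit was the highest. An 18S ribosomal RNA control read 5.90 to 9.66 on the condyle arrays, 7.30 to 9.75 on the fossa arrays and 14.27 to 14.42 on the whole body arrays. It thus stood apart along the same line as every comparison with the whole body, and its part in those differences was not tested. Of 10 measured cartilage markers, 9 were higher in each joint tissue than in the whole body. The deposited values are not aligned above their medians, and the scaling moved the split of calls over all genes. Over all genes 1699 were higher and 699 lower in condyle than in whole body, 726 higher and 2833 lower in fossa than in whole body, and 3053 higher and 387 lower in condyle than in fossa. Of the genes past the threshold, 70.9% were higher in condyle than in whole body as deposited, 50.5% after quantile normalization and 16.96% after scaling to the 75th percentile. For fossa against whole body these shares were 20.4%, 47.1% and 44.5%, and 44.7% after centring on the median. For condyle against fossa they were 88.75%, 58.8% and 10.01%, and 74.9% with all probe sets fitted.

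Dmp1 was the member with the clearest difference. Its brightest probe set, 1443745_s_at, read 9.69, 5.70 and 6.44 on condyle arrays 1, 2 and 3, 8.25, 10.94 and 10.70 on the fossa arrays, and 4.32, 4.08 and 4.23 on the whole body arrays. Every condyle and fossa array was above every whole body array, condyle array 1 lay among the fossa arrays, and condyle arrays 2 and 3 lay between the groups. Group means were 7.28 ± 2.13 for condyle, 9.96 ± 1.49 for fossa and 4.21 ± 0.12 for the whole body (SD, n = 3 each). The order was fossa, condyle, whole body, and fossa and condyle overlapped.

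Phex had the widest spread of the 4 genes in the condyle. Probe set 1421979_at read 9.18, 3.29 and 4.21 on the condyle arrays, 5.89, 8.64 and 8.18 on the fossa arrays, and 3.62, 3.23 and 3.27 on the whole body arrays. Condyle array 1 was the brightest of all 9, while condyle array 2 lay among the whole body arrays and condyle array 3 just above them. The whole body values were close to the background limit, and 1 of them was under it. Group means were 5.56 ± 3.17 for condyle, 7.57 ± 1.47 for fossa and 3.37 ± 0.21 for the whole body (SD, n = 3 each). All 3 fossa arrays exceeded all 3 whole body arrays, whereas the condyle overlapped both other groups.

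Ibsp was far above background on every array. Probe set 1417484_at read 12.49, 9.67 and 10.03 on the condyle arrays, 10.39, 13.46 and 12.27 on the fossa arrays, and 9.52, 9.71 and 9.34 on the whole body arrays. Condyle array 1 and fossa arrays 2 and 3 were again the high ones, and condyle array 2 fell within the range of the whole body arrays. Group means were 10.73 ± 1.54 for condyle, 12.04 ± 1.55 for fossa and 9.52 ± 0.18 for the whole body (SD, n = 3 each). Fossa and whole body did not overlap, and condyle overlapped with both.

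Mepe was near the background limit throughout. Its only probe set, 1421650_at, read 2.99, 2.51 and 2.89 on the condyle arrays, 3.95, 4.78 and 3.66 on the fossa arrays, and 3.29, 2.77 and 2.93 on the whole body arrays. It was above the limit on 2 condyle arrays, all 3 fossa arrays and 1 whole body array. All fossa arrays lay above all others, and condyle and whole body overlapped. Condyle array 1, high for the other 3 genes, lay within the whole body range here.

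**Figure D1:**
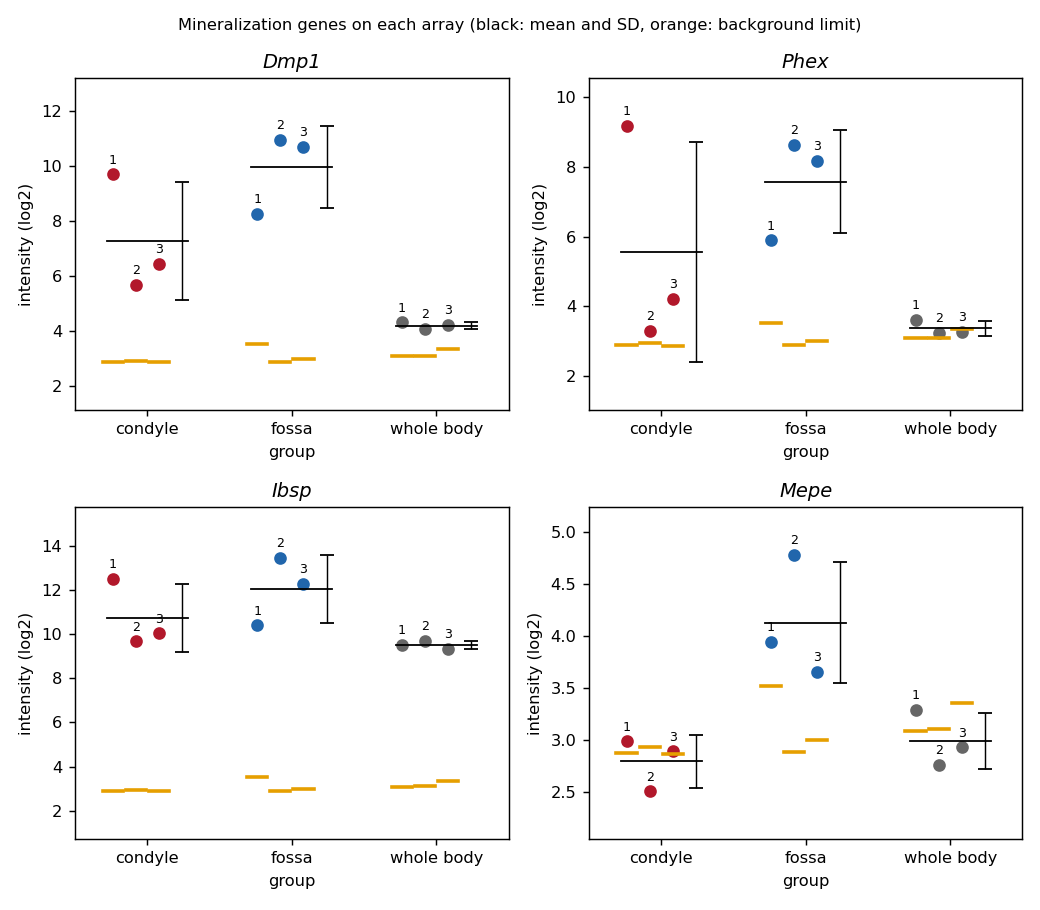
Intensity (log2, vertical axis, a separate range for each gene) of the brightest probe set of Dmp1, Phex, Ibsp and Mepe on each array, by group, with array numbers above the points. Black lines are group means, bars at their right are SD of 3 arrays, and orange dashes are each array's background limit. For Dmp1, Phex and Ibsp condyle array 1 stands with the fossa arrays and apart from condyle arrays 2 and 3.

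The other probe sets of Dmp1 and Ibsp gave a like picture, with exceptions. For Dmp1, 1443746_x_at read 9.89, 4.91 and 6.72 on the condyle arrays, 7.30, 11.22 and 10.84 on the fossa arrays, and 3.80, 4.92 and 2.65 on the whole body arrays. Here condyle array 2 no longer exceeded the whole body, since whole body array 2 was as high. The third Dmp1 probe set, 1426005_at, was above background on fossa arrays 2 and 3 alone, at 4.80 and 4.61, and at 2.73 to 2.99 on the other 7 arrays. The second Ibsp probe set, 1417485_at, read 8.46, 4.64 and 4.61 on the condyle arrays, 7.20, 9.02 and 6.73 on the fossa arrays, and 5.99, 4.73 and 3.56 on the whole body arrays. The same 3 arrays were its high ones, together with fossa array 1. The second Phex probe set, 1450445_at, was at background on all 9 arrays, at 2.38 to 2.54. Fitted with all probe sets of the array, 4 of the 24 tests of these 8 probe sets passed the threshold: both bright Dmp1 probe sets and Mepe in fossa against whole body, and Mepe in condyle against fossa. Of all 45037 probe sets fitted, 2790 passed in condyle against whole body, 7583 in fossa against whole body and 7206 in condyle against fossa, in either direction.

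**Figure D2:**
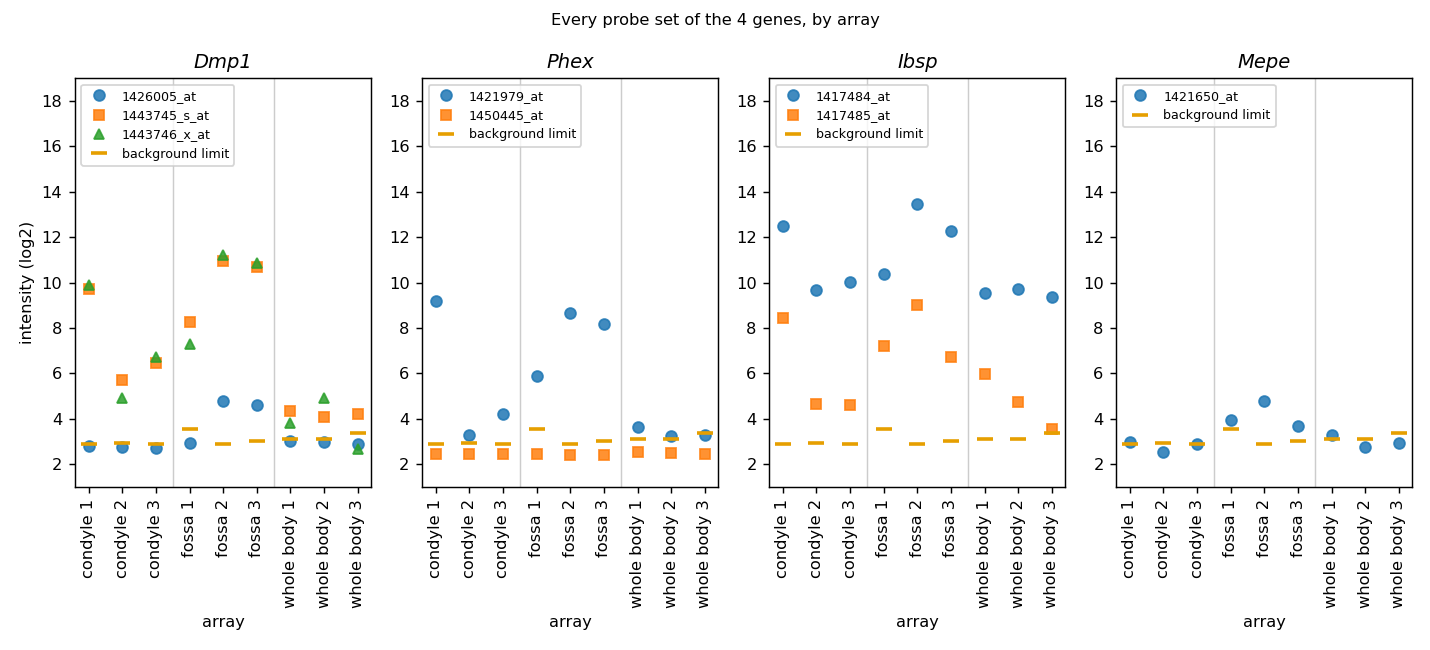
Intensity (log2) of all 8 probe sets of the 4 genes on the 9 arrays, ordered by group, with symbols for probe sets and orange dashes for the background limit. The first 2 Dmp1 probe sets by brightness follow each other, while 1426005_at exceeds background on fossa arrays 2 and 3 alone and the second Phex probe set stays at background.

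In the fossa, set against the whole body, Dmp1 and Mepe were higher past the threshold, and Phex and Ibsp were not. Dmp1 was 54.0-fold higher, a log2 difference of 5.76 ± 1.13 (SE, 95% interval 3.10 to 8.41, limma, Benjamini-Hochberg adjusted p = 0.0132). Mepe was at least 1.84-fold higher (adjusted p = 0.0395), a bound because 1 whole body array alone was above background. For Phex the log2 difference was 4.20 ± 1.52 (interval 0.63 to 7.77, adjusted p = 0.0988). Its measured means differed by at least 18.0-fold, a bound that allows for background and not for the spread among arrays. For Ibsp it was 2.52 ± 0.95 (interval 0.28 to 4.75, adjusted p = 0.111). In tissue samples such as these, fewer cells of a type and less RNA per cell cannot be told apart. In all, 2 of the 4 genes passed in the higher direction, against 3.99% of all genes, and all 4 had fossa arrays wholly above the whole body arrays, against 11.1% of all genes. Their median difference was 3.36, against -0.11 over all genes. The Dmp1 call held in all 20 alternative settings, at adjusted p 0.00494 to 0.0487, with log2 differences of 5.27 to 6.61 when 1 array was left out and 3.97 with 50 added to the intensities, and the Mepe call held in 8 of 20, at 0.0140 to 0.113. Phex passed without condyle array 1 (4.20, adjusted p = 0.0141) and in a fit of the 2 groups alone (adjusted p = 0.0256), its range over alternatives being 0.0141 to 0.225, and Ibsp passed without fossa array 1 (3.34, adjusted p = 0.0492, range 0.0492 to 0.260).

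Between the joint tissues, all 4 genes had the lower mean in condyle, and the difference passed the threshold for Mepe alone. Mepe was lower in condyle than in fossa by a log2 difference of -1.33 ± 0.30 (SE, 95% interval -2.05 to -0.62, limma, adjusted p = 0.0246), or at least 2.28-fold. For Dmp1 the difference was -2.69 ± 1.13 (interval -5.34 to -0.03, adjusted p = 0.145), for Phex -2.01 ± 1.52 (interval -5.58 to 1.56, adjusted p = 0.413), and for Ibsp -1.31 ± 0.95 (interval -3.55 to 0.93, adjusted p = 0.393). These intervals hold differences of many fold as well as, for Phex and Ibsp, none. So 1 of 4 genes passed in the lower direction, against 2.13% of all genes, and the same gene was the only one with all condyle arrays below all fossa arrays, against 15.8%. The median difference of the 4 was -1.67, against 0.21 over all genes. Without condyle array 1, 2 of these results came to pass the threshold. Dmp1 was then at -3.90 (adjusted p = 0.0341, range over alternatives 0.0298 to 0.338) and Phex at -3.82 (adjusted p = 0.0367, range 0.0367 to 0.760). Dmp1 also passed with all arrays kept, after scaling to the 75th percentile (-3.36, adjusted p = 0.0298). Under that scaling 6427 of all 18193 genes were lower in condyle than in fossa, against 387 as deposited. The median over all genes was then -0.45. Ibsp was at -2.19 without condyle array 1, -2.14 without fossa array 1 and -0.60 without fossa array 2, and did not pass. The Mepe call was lost without any 1 of the condyle arrays (adjusted p = 0.0539, 0.0735 and 0.0598 without array 1, 2 and 3) and held in 13 of 20 alternatives, at 0.00721 to 0.0735.

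In the condyle, set against the whole body, 0 of the 4 genes passed the threshold, against 9.34% of all genes in the higher direction. At an unadjusted limma p under 0.05, 1 of the 4 passed, Dmp1, and the share of all genes at that limit is not given here. Its log2 difference was 3.07 ± 1.13 (SE, 95% interval 0.41 to 5.72, adjusted p = 0.128), and it was the only one of the 4 whose condyle arrays lay wholly above the whole body arrays, against 19.8% of all genes. The difference was 2.19 ± 1.52 for Phex (interval -1.39 to 5.76, adjusted p = 0.364) and 1.21 ± 0.95 for Ibsp (interval -1.03 to 3.44, adjusted p = 0.414). Both intervals include no difference. For Mepe, near background in both groups, the measured difference was -0.20 ± 0.30 (interval -0.91 to 0.51, adjusted p = 0.658). The median was 1.70, against -0.03 over all genes. Most of the Phex and Ibsp difference was carried by condyle array 1: without it the difference was 0.38 for Phex and 0.32 for Ibsp, and 1.86 for Dmp1. The 3 comparisons share arrays and are not independent of one another.

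**Figure D3:**
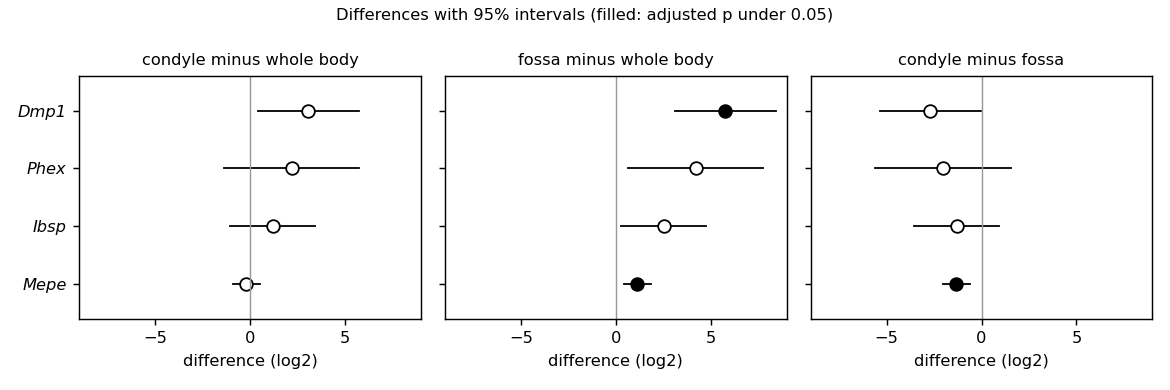
Log2 differences (horizontal axis) of the 4 genes in the 3 comparisons, with 95% intervals from the limma fit of all 9 arrays. Filled points passed an adjusted p of 0.05. Dmp1 and Mepe are filled in fossa minus whole body and Mepe in condyle minus fossa.

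The members' levels followed one another across the 9 arrays. Pearson's r of the brightest probe sets was 0.95 for Dmp1 and Phex, 0.94 for Dmp1 and Ibsp and 0.96 for Phex and Ibsp, and 0.63 to 0.69 for Mepe with each of the others. These correlations describe 9 arrays that fall into 3 groups and share their normalization. Among 1658 other genes with enough signal and spread, those most like Dmp1 were Otor (r = 0.98), Pyroxd2 (0.97), Col1a2 (0.96), Kazald1 (0.96) and Col1a1 (0.96). Col1a1 and Col1a2 encode the chains of type I collagen, the main protein of bone matrix. The genes most like Phex were the Wnt inhibitor Dkk1 (0.99), Col22a1 (0.98), the vitamin D receptor gene Vdr (0.96), Pyroxd2 (0.96) and Col13a1 (0.96). Those most like Ibsp were Col22a1 (0.99), Lpar3 (0.98), Cgref1 (0.96), Kazald1 (0.96) and Ranbp3l (0.96). For Mepe, whose own spread was small and largely near background, they were Pik3r6 (0.98), Omd (0.80), Slc36a2 (0.79), Ranbp3l (0.78) and Mamdc2 (0.78).

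Col22a1, which stood high on both the Phex and the Ibsp list, showed the shared array pattern. It read 9.26, 4.70 and 5.43 on the condyle arrays, 6.88, 10.23 and 8.53 on the fossa arrays, and 4.57, 4.84 and 4.81 on the whole body arrays. Dkk1 read 7.40, 4.39 and 4.38 on the condyle arrays, 6.18, 7.19 and 7.15 on the fossa arrays, and 4.46, 4.44 and 4.32 on the whole body arrays. Both were high on condyle array 1 and fossa arrays 2 and 3, intermediate on fossa array 1, and near the whole body on condyle arrays 2 and 3. Pik3r6, a regulatory subunit of a phosphoinositide kinase, read 2.49, 2.01 and 2.02 on the condyle arrays, 3.75, 5.74 and 3.74 on the fossa arrays, and 2.96, 2.03 and 2.02 on the whole body arrays. Like Mepe, Pik3r6 peaked on fossa array 2. It was above the background limit on the fossa arrays alone, and entered the search through them. Its values on the other arrays, among them condyle array 1, lay under that limit and say little of its likeness to Mepe.

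Osteocyte markers did not move as 1 group. In fossa against whole body, 2 of 13 measured markers were higher and 3 lower (median 0.04), where 726 of all 18193 genes were higher and 2833 lower. Fbln7 (fibulin 7, a matrix glycoprotein) was at least 6.50-fold higher (adjusted p = 0.00653), while Kera (keratocan) was at least 7.31-fold lower (adjusted p = 0.0245) and Dstn (destrin, an actin-severing protein) lower by a log2 difference of -1.29 (adjusted p = 0.00582). Sost, the osteocyte Wnt inhibitor sclerostin, was the other marker that was higher. It read 2.54, 2.52 and 2.49 on the condyle arrays, 3.10, 3.95 and 4.32 on the fossa arrays, and 2.59, 2.55 and 2.54 on the whole body arrays. It was above background on fossa arrays 2 and 3 alone, the arrays on which the third Dmp1 probe set was above background. Sost was at least 1.52-fold higher in fossa than in whole body (adjusted p = 0.0212), a comparison named after its values had been seen. It was at least 1.86-fold lower in condyle than in fossa (adjusted p = 0.0208). These calls held in 12 of 20 and 13 of 20 alternatives. Dkk1, at 2.43 in fossa minus whole body (adjusted p = 0.0747) and -1.45 in condyle minus fossa (adjusted p = 0.254), did not pass. Fgf23 was at background on all 9 arrays, and its lower call in fossa is a difference below that limit. In condyle against whole body 1 of 13 was higher, Fbln7, by at least 4.01-fold (adjusted p = 0.0242), and in condyle against fossa 1 was higher, Dstn at 1.17 (adjusted p = 0.0105), and 1 lower, Sost. The medians were 0.13 and 0.21. Of all genes, 1699 were higher in condyle than in whole body, and 3053 were higher and 387 lower in condyle than in fossa.

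Of 18 measured regulators of mineralization, 4 passed in condyle and 4 in fossa against the whole body, where 2398 and 3559 of all 18193 genes did. The Fgf23 entry is shared with the osteocyte list. Against the whole body, Ahsg and Car2 were lower in both joint tissues. Ahsg, the plasma mineral inhibitor fetuin-A made in liver, was at least 34.1-fold lower in condyle (adjusted p = 9.4e-05) and at least 28.2-fold lower in fossa (adjusted p = 9.9e-05). Car2, a carbonic anhydrase of osteoclasts and red cells, was lower by -5.30 in condyle (adjusted p = 0.000327) and -5.54 in fossa (adjusted p = 0.000172) on the log2 scale. Of 7 liver markers 6 were lower in each joint tissue (medians -7.55 in condyle and -7.58 in fossa), and of 7 erythroid markers 5 were lower in condyle and 6 in fossa (medians -4.86 and -5.47). The part of these cell types in the Ahsg and Car2 differences was not tested. Ank, a membrane protein that exports the mineral inhibitor pyrophosphate, was higher in condyle by 2.50 (adjusted p = 0.0398), a call that held in 7 of 20 alternatives. Counting Mgp, 2 genes were higher and 2 lower in condyle (median 0.36), and 1 higher and 3 lower in fossa (median -0.07). In fossa, Vdr at 2.07 (adjusted p = 0.0965) and Sparc (osteonectin) at 1.73 (adjusted p = 0.139) did not pass. In condyle, Sparc at 2.02 (adjusted p = 0.115) did not pass. Between condyle and fossa 1 of 18 passed, Bmp1 (median 0.27), where 3440 of all genes did. Bmp1, a protease that cleaves procollagens and Dmp1, was higher in condyle by 1.23 (adjusted p = 0.0382, 9 of 20 alternatives).

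Among 9 measured receptors of Arg-Gly-Asp matrix proteins, the integrin chain Itgb5 was higher in both joint tissues than in whole body. The log2 difference was 2.75 in condyle (adjusted p = 0.00111) and 1.72 in fossa (adjusted p = 0.00402), and condyle exceeded fossa by 1.02 (adjusted p = 0.0287, held in 12 of 20 alternatives). Itga4 was lower in fossa than in whole body by -1.41 (adjusted p = 0.0038) and higher in condyle than in fossa by 1.18 (adjusted p = 0.00927, held in 17 of 20 alternatives). Itga9 was at least 1.78-fold higher in condyle than in fossa (adjusted p = 0.0278, held in 11 of 20 alternatives). In counts, 1 of 9 was higher in condyle, 1 higher and 1 lower in fossa, and 3 higher in condyle against fossa, with medians of 0.63, -0.06 and 0.58. Of all 18193 genes, 1699 were higher in condyle, 726 higher and 2833 lower in fossa, and 3053 higher in condyle against fossa. Itga8 at -1.40 in condyle (adjusted p = 0.0975) did not pass.

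Among osteoblast genes, those that passed in the fossa were higher, as Dmp1 and Mepe were. Set against the whole body, 3 of 11 measured markers were higher in fossa (median 0.85) and 2 in condyle (median 0.57). Of all 18193 genes, 726 were higher in fossa and 1699 in condyle. Col1a1 read 14.00, 12.05 and 12.01 on the condyle arrays, 12.46, 13.64 and 13.60 on the fossa arrays, and 10.61, 10.31 and 10.19 on the whole body arrays. Condyle array 1 was the brightest, and unlike Phex and Ibsp all condyle arrays lay above the whole body. Col1a1 was higher by 2.31 in condyle (adjusted p = 0.0426, held in 6 of 20 alternatives) and by 2.86 in fossa (adjusted p = 0.0152). Col1a2 was higher by 2.55 in fossa (adjusted p = 0.011) and stood at 1.73 in condyle (adjusted p = 0.0561). Dlx5, a homeobox factor of bone-forming cells, was at least 2.12-fold higher in condyle than in whole body (adjusted p = 0.00193) and at least 1.89-fold higher in condyle than in fossa (adjusted p = 0.0102). It was the only marker of the 11 that passed between condyle and fossa (median -0.29), where 3053 of all genes were higher in condyle and 387 lower. Sp7 (osterix) at 1.70 in condyle (adjusted p = 0.0931), Ifitm5 at 2.11 in fossa (adjusted p = 0.122) and Omd (osteomodulin) at -2.44 in condyle minus fossa (adjusted p = 0.109) did not pass.

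Some osteoclast genes were high on condyle array 1 alone. Mmp9, a protease of osteoclasts, read 10.13, 4.11 and 4.43 on the condyle arrays, 5.18, 5.62 and 4.46 on the fossa arrays, and 4.68, 4.90 and 5.45 on the whole body arrays. The collagen-degrading protease gene Ctsk read 10.77, 7.32 and 6.70 on the condyle arrays, 6.21, 7.60 and 7.03 on the fossa arrays, and 5.71, 5.63 and 6.80 on the whole body arrays. Both stood highest on condyle array 1, whereas Dmp1, Phex and Ibsp were also high on fossa arrays 2 and 3. Acp5, Atp6v0d2 and Ocstamp read 8.71, 5.29 and 4.39 on condyle array 1. On the other 8 arrays Acp5 did not exceed 6.18, Atp6v0d2 3.85 and Ocstamp 2.38. Clcn7, Tcirg1, Dcstamp, Oscar and Tnfrsf11a were on condyle array 1 not above all fossa arrays. The summed intensity of the 12 markers, most of it from Ctsk and Mmp9 on condyle array 1, was 355 to 3540 on the condyle arrays, 336 to 412 on the fossa arrays and 222 to 289 on the whole body arrays. That of 11 macrophage markers was 348 to 3128 on the condyle arrays, 1064 to 1942 on the fossa arrays and 2104 to 2802 on the whole body arrays, with condyle array 1 the highest. The part of these cells in the members' levels was not tested. Mmp9, Atp6v0d2 and Ocstamp were named for some comparisons after their values had been seen. By the test, 2 of 12 osteoclast markers were higher and 1 lower in condyle against whole body (median 0.87). In fossa 1 was lower (median 0.18), and in condyle against fossa 2 were higher and 1 lower (median 0.73). Of all 18193 genes, 1699 were higher and 699 lower in condyle and 2833 lower in fossa. In condyle against fossa 3053 were higher and 387 lower. The lower marker in fossa was Calcr, under the background limit on every fossa array. Dcstamp, Oscar and Tnfrsf11a were under it on every condyle array, so the lower calls rest on values at background. Nfatc1, a transcription factor that drives osteoclast formation but is used by many cells, was at least 3.84-fold higher in condyle than in whole body (adjusted p = 0.00841) and higher by 1.92 in condyle than in fossa (adjusted p = 0.0108). The chloride transporter gene Clcn7 was higher in condyle than in whole body by 1.44 (adjusted p = 0.0183).

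Among genes of hypertrophic cartilage, Panx3 and Pth1r were even over the condyle arrays, whereas Mmp13 and Alpl were highest on condyle array 1. Panx3, a channel protein of prehypertrophic chondrocytes and osteoblasts, read 10.99, 11.07 and 10.53 on the condyle arrays, 7.95, 11.12 and 9.75 on the fossa arrays, and 6.73, 6.67 and 7.42 on the whole body arrays. Pth1r, the receptor for parathyroid hormone related protein, read 7.53, 7.44 and 7.40 on the condyle arrays, 6.77, 8.93 and 7.85 on the fossa arrays, and 4.95, 4.95 and 4.35 on the whole body arrays. The 3 condyle arrays were alike for both genes, unlike for Dmp1, Phex and Ibsp, and fossa array 1 was the lowest of the joint arrays. Panx3 was higher by 3.92 in condyle (adjusted p = 0.0153) and 2.67 in fossa (adjusted p = 0.0422, held in 7 of 20 alternatives), and Pth1r by 2.71 in condyle (adjusted p = 0.0144) and 3.10 in fossa (adjusted p = 0.00602). Mmp13, a collagenase of hypertrophic chondrocytes and osteoblasts, read 9.02, 3.09 and 5.32 on the condyle arrays, 7.87, 6.57 and 7.86 on the fossa arrays, and 4.05, 4.10 and 4.68 on the whole body arrays. It was thus uneven in the condyle, and did not pass at 1.53 in condyle (adjusted p = 0.458) or 3.16 in fossa (adjusted p = 0.152). Alpl, the alkaline phosphatase gene, read 4.77, 3.25 and 3.26 on the condyle arrays, 3.62, 4.01 and 4.13 on the fossa arrays, and 3.34, 3.29 and 2.94 on the whole body arrays, and was named after its values had been seen. In counts, 3 of 8 were higher in condyle and 3 in fossa (medians 1.51 and 1.01), where 1699 and 726 of all 18193 genes were. Between condyle and fossa 0 of 8 passed in limma (median -0.03), against 1, Vegfa, at an unadjusted p under 0.05. At the adjusted threshold 3053 of all genes were higher in condyle and 387 lower, and the share at the unadjusted limit is not given here. Col10a1 and Ihh were at background on all 9 arrays.

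Since Dmp1 and its neighbour Dspp are also made in teeth, tooth markers were read. Dspp, the main product of odontoblasts, was at background on every array, and 6 of 8 tooth markers were at background in both groups of each comparison with the whole body. Amtn (amelotin) crossed the limit by a small margin on whole body array 2 alone. Ambn (ameloblastin, of enamel-forming cells) read 5.42, 2.43 and 3.00 on the condyle arrays, 3.11, 6.87 and 2.80 on the fossa arrays, and 2.54, 2.47 and 2.49 on the whole body arrays. It was high on condyle array 1 and fossa array 2, where Dmp1, Phex and Ibsp were high too. On fossa array 3, where these genes were also high, Ambn was low. The part of tooth tissue in the members' levels was not tested. The summed intensity of the 8 tooth markers was 42.8 to 80.3 on the condyle arrays, 45.0 to 155 on the fossa arrays and 43.6 to 47.7 on the whole body arrays. Fossa array 2, the brightest for Dmp1, Ibsp and Mepe, also had the lowest mean log2 level of 10 epithelial markers, 4.94, against 7.45 to 9.18 on the other 8 arrays.

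**Figure D4:**
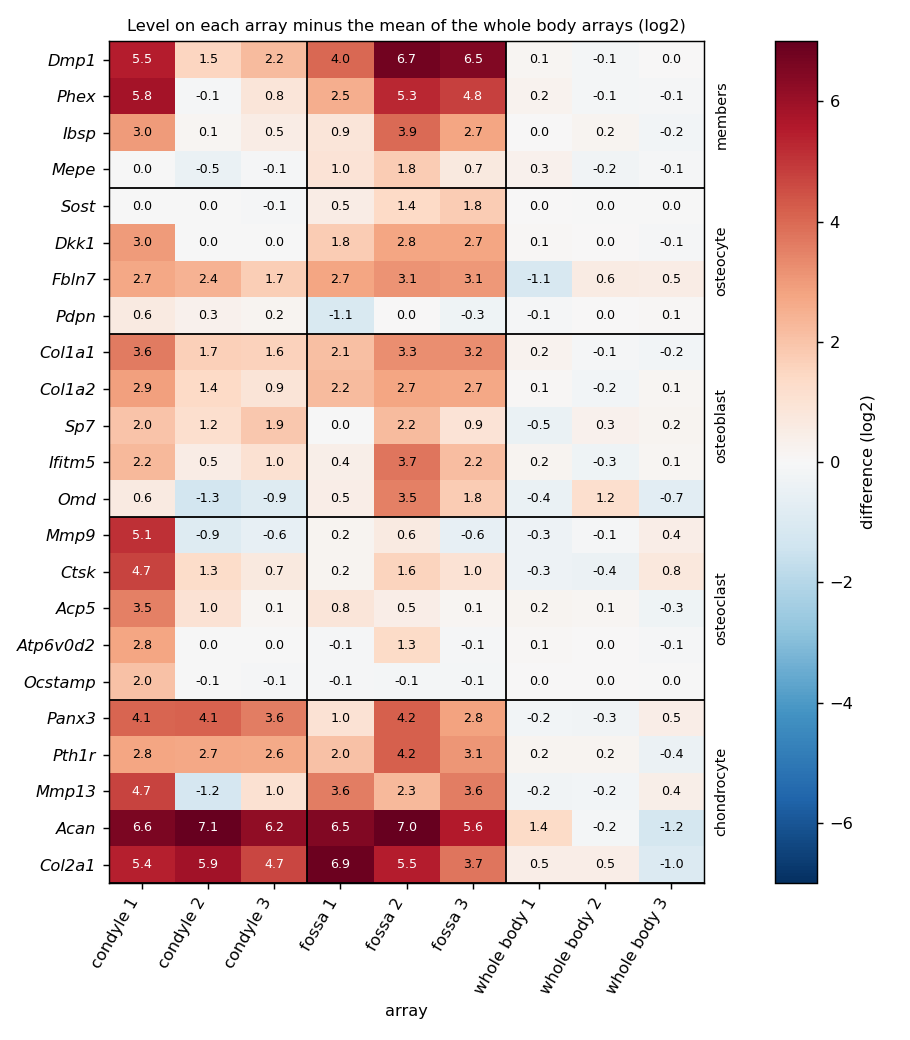
Log2 level on each array minus the mean of the 3 whole body arrays (colour and printed value), for the members and for picked markers. These are a part of the markers read for osteocytes, osteoblasts, osteoclasts and chondrocytes. Among those not shown are Kera and Dstn, lower in fossa than in whole body, and Dlx5, higher in condyle than in fossa. Col10a1 and Ihh, at background, are not shown either. Colours end at 7 in either direction. Dmp1, Phex and Ibsp are high on condyle array 1 and fossa arrays 2 and 3, Mmp9, Ctsk, Acp5, Atp6v0d2 and Ocstamp (osteoclast genes picked after their values had been seen) on condyle array 1, and Panx3 and Pth1r on all 3 condyle arrays.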

How the data were processed

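RNA of 9 samples had been hybridised to Affymetrix arrays of 45101 probe sets, per the labels' protocols. The deposited table gives 1 linear intensity per probe set and array, from 3.25 to 67158.9. The authors' background correction, normalization and probe summary were not given in the sources used here, and the submitters' processing notes name limma. Intensities were kept as deposited and converted to log2. The platform annotation gave 1 symbol to 34945 probe sets, several to 932 and none to 9160, beside 64 controls. RefSeq (GRCm38.p6) supplied promoters and a check of names, which changed 0 symbols. The brightest probe set over all 9 arrays stood for each of 18193 genes.

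All 9 arrays entered 1 fit of 3 groups (lmFit and eBayes of limma 3.58.1, run under R 4.3.3), with 6 residual and 1.12 prior degrees of freedom and no block. The threshold was an adjusted p under 0.05 over all genes (Benjamini-Hochberg). The fit was tested on simulated data in which all groups of a gene had the same spread. In the data the group SDs of Dmp1 went from 0.12 to 2.13, so that test does not cover such genes. Where under 3 arrays of the dimmer group exceeded the background limit, a fold is written "at least", each dim array counting as its limit if it lay lower. Such a bound is of the measured means and does not allow for the spread among arrays. Where neither group rose above background, no fold is printed. With 3 arrays per group, precision is limited by their number. Whether replicate numbers pair the samples could not be told, and a pairing under other numbers was not tested.

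Named genes were the members, up to 4 genes of each list described, by absolute log2 difference, and the 5 genes most like each member by Pearson's r (above background on at least 3 arrays, SD at least 1), with Gapdh and Actb. The members and lists were chosen with earlier results of these data known. List genes with no probe set of their own in the annotation used are not analysed here. Alternatives changed the scaling, floor, offset, probe set rule, variance prior, block or arrays used.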

Additional observations from a re-analysis of the deposited data

Results flagged for a closer look

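The differences of Mepe from the whole body were not alike in the joint tissues. The difference between them, which equals condyle minus fossa, was -1.33 ± 0.30 on the log2 scale (SE, n = 3 arrays each, limma, Benjamini-Hochberg adjusted p = 0.0246), and all 3 condyle arrays lay below all 3 fossa arrays. Mepe was above background on 2 condyle arrays and on 3 fossa arrays, and its values there did not exceed 4.78, so the difference lies in the lowest part of the scale. With 3 arrays in each group, no array was tested for standing apart.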

How the results depend on the processing

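Over 240 repeats of the 12 member differences, 215 kept their direction and side of the threshold, 6 came to pass it, 19 ceased to pass it and 0 reversed. The cause of the changes below was not tested. Scaling to the 75th percentile moved the median of all genes to -0.43 in condyle minus whole body, 0.16 in fossa minus whole body and -0.45 in condyle minus fossa. As deposited these were -0.03, -0.11 and 0.21. Under that scaling Dmp1 in condyle minus fossa passed at -3.36 (adjusted p = 0.0298, range over alternatives 0.0298 to 0.338). Mepe in fossa minus whole body ceased to pass with a floor at background (0.99), with 50 added (0.23) and in a fit of the 2 groups (1.13), and so it did in condyle minus fossa (-1.06, -0.26 and -1.33). In the fit of the 2 groups Phex in fossa minus whole body passed at 4.20. Genes past the threshold numbered 2398 in condyle minus whole body, 3559 in fossa minus whole body and 3440 in condyle minus fossa. The first moved to 8602 with the 75th percentile, the second to 2298 with the floor and 7583 with all probe sets. The third moved to 1176 with quantile normalization, 7142 with the 75th percentile, 2136 with the floor and 7206 with all probe sets. Of the members' probe set tests 4 passed, against 9 with the 75th percentile, 1 with the floor and 1 with 50 added.

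Same-numbered condyle and fossa arrays deviated from their group means with r of -0.33, -0.44 and 0.15, so the numbers give no pairing. The r was 0.44 for condyle array 1 with fossa array 2, and 0.44 for condyle array 2 with fossa array 1. Whether samples were paired or grouped under other numbers was not tested. With the replicate block, Mepe was at 1.13 in fossa minus whole body (adjusted p = 0.0899, range 0.0140 to 0.113) and -1.33 in condyle minus fossa (adjusted p = 0.0639, range 0.00721 to 0.0735). Both ceased to pass, and 0 of 24 probe set tests of the members passed in limma, against 7 at an unadjusted p under 0.05. The share of all probe sets at that unadjusted limit is not given here. The counts of genes, in the order above, were 1691, 2779 and 2537.

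Leaving out 1 array at a time gave 1470 to 2591, 2343 to 3352 and 2086 to 3515 genes, and 1 to 5 passing probe set tests. In fossa minus whole body, Mepe ranged from 0.81 to 1.37, Phex from 3.66 to 5.04, Ibsp from 1.81 to 3.34 and Dmp1 from 5.27 to 6.61. In condyle minus fossa, Dmp1 ranged from -3.90 to -1.90, Phex from -3.82 to -0.88, Mepe from -1.57 to -1.01 and Ibsp from -2.19 to -0.60. Mepe in fossa minus whole body passed in 1 of these 9 fits, and Dmp1 in fossa minus whole body in 9 of 9. In condyle minus whole body, Itgb3 ranged from -0.11 to 1.28 and Mmp13 from -0.072 to 2.90, both turning below 0 without condyle array 1. In repeats for the other genes named, 836 kept their direction and side of the threshold, 25 came to pass it, 117 ceased to and 2 reversed.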
